A study of Mus musculus with 5 samples.

Results

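Sox4, Sox11 and Sox2 encode transcription factors of the Sox family, and their messenger RNA was followed in the mouse cerebellum between late gestation and adulthood. They were chosen as the probes whose single gene symbol in the platform's annotation is Sox4, Sox11 or Sox2. This gave 3 probes of the 897 in the deposited table, 1 for each gene, and 3 of the 773 genes that the table names. Total RNA of whole cerebellum was hybridised to arrays at 5 ages: day 18 of embryonic life (E18) and, counted from birth, day 7 (P7), day 14 (P14), day 21 (P21) and day 56 (P56). The labels give tissue and age alone, and no strain, sex, genotype, treatment or number of animals is stated in them. Each age has 1 column, which per the labels is a mean over 2 array experiments, so no difference below has a replicate check or a p-value, and the number of arrays limits the precision.

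Values are read as percent of the probe's highest age in each experiment, averaged over 2, a scale that the labels do not state. They give the shape of a gene's course and not its amount, so a value of Sox4 cannot be set against a value of Sox2 as a level, whereas fold changes between ages can be set side by side. A gene is said to have fallen or risen where 2 ages differed by 2-fold or more. Of the genes that mark cerebellar cells, Gabra6, a GABA-A receptor subunit gene of granule cells, had 99.8% at P56 and 0.72% at E18. Pcp2 and Calb1, both of Purkinje cells, had 82.7% and 92.8% at P56, against 22.5% and 37.4% at E18.

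Sox proteins bind DNA through an HMG box, a domain that bends the double helix, and most act together with partner transcription factors. Sox4 and Sox11 belong to the SoxC group, which is found in newly born neurons and switches on genes of the neuronal cytoskeleton as cells leave the cycle. Sox2 belongs to the SoxB1 group, which keeps neural stem and progenitor cells undifferentiated and persists in some glia, among them the Bergmann glia of the cerebellum. In the mouse cerebellum most granule neurons are born after birth in the external granular layer, which disappears during the first postnatal weeks.

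Sox4 was highest at E18 and lower at each later age. It stood at 100% at E18, 39.9% at P7, 20.2% at P14, 3.71% at P21 and 2.56% at P56. Sox11 kept its embryonic value at P7 and was then lost: 90.8% at E18, 93.8% at P7, 26.8% at P14, 1.32% at P21 and 1.74% at P56. Sox2 stood at 89.5% at E18, 89.1% at P7, 52.8% at P14, 45.4% at P21 and 46.9% at P56. Both SoxC genes were thus close to the bottom of the scale from P21 on, while Sox2 held a plateau near the middle of it. Over all probes the median value was 84.5% at E18, 82.8% at P7, 55.5% at P14, 42.3% at P21 and 42.0% at P56, so Sox2 lay close to the median probe at every age.

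**Figure D1:**
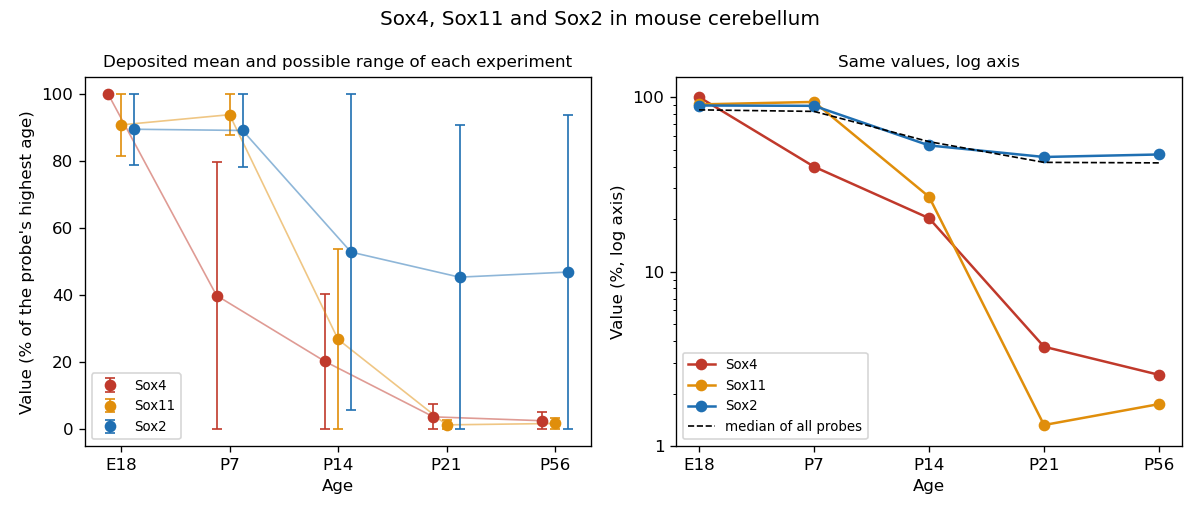
Deposited values of Sox4, Sox11 and Sox2 at E18, P7, P14, P21 and P56, on a linear axis at left and a log axis at right. They are read as percent of the probe's highest age in each experiment, averaged over 2 experiments. Points are the deposited means; bars at left span the values that either of the 2 experiments could have had if each lies between 0 and 100%, and the dashed line at right is the median of all 897 probes. Sox4 and Sox11 end at 2.56% and 1.74% at P56 with narrow bars, while Sox2 stays near 47% with a bar up to 93.8%.

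The spread between the 2 experiments is not given, but the scale limits it. If each experiment lies between 0 and 100%, a mean of 100% means that both stood at 100%, and a mean of 2.56% allows neither to exceed 5.12%. Sox4 was therefore highest at E18 in both experiments, and in each of them it was lower by at least 1.25-fold at P7, 2.47-fold at P14, 13.5-fold at P21 and 19.5-fold at P56. Against E18, Sox11 was lower in each experiment by at least 1.52-fold at P14, 30.9-fold at P21 and 23.4-fold at P56. Against P7, it was lower in each by at least 1.63-fold at P14, 33.2-fold at P21 and 25.2-fold at P56. Of the 10 pairs of ages, 4 must have moved the same way in both experiments for Sox4 and 6 for Sox11. For Sox2 this held for 0 of the 10 pairs, since the possible ranges of any 2 of its ages overlap. At P56, for example, its mean allows values between 0 and 93.8% in an experiment. These counts follow from the deposited means alone and do not measure how well the experiments agreed. They are given for the 3 genes and not for the other probes.

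A further premise, inferred and not stated in the labels, is that each experiment was scaled to 100% at its own highest age. It would recover part of the spread at the early ages. A mean under 50% cannot contain a value of 100%, so each experiment of Sox11 peaked at E18 or P7, and the means require 1 peak at each. In 1 experiment Sox11 then stood at 87.6% at P7 and 100% at E18, and in the other at 100% at P7 and 81.6% at E18. If that premise holds, the 2 experiments moved in opposite directions between these ages. The 1.03-fold difference of their means is then smaller than the spread between them. For Sox2 the peaks can be at E18 and P7, with 78.2% at P7 in the experiment that peaked at E18 and 79.0% at E18 in the one that peaked at P7. A peak at P14 in 1 of the 2 experiments is also possible for Sox2, and the other would then stand at 5.68% at P14.

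Between adult (P56) and embryonic (E18) cerebellum, Sox4 fell 39.1-fold, with 2.56% at P56 against 100% at E18 (log2 difference -5.29). Sox11 fell 52.2-fold, with 1.74% at P56 against 90.8% at E18 (-5.71). Sox2 had 46.9% at P56 against 89.5% at E18, a 1.91-fold difference (-0.93) that did not reach 2-fold. Over all 897 probes 52.5% fell and 22.6% rose in this comparison, and a fall by itself was thus the most frequent outcome. Of the 897 probes, 6 had a lower difference than Sox11 and 11 a lower one than Sox4, whereas 500 had a lower one than Sox2 and 396 a higher one. The median difference over all probes was -1.07, which leaves Sox4 at -4.22, Sox11 at -4.63 and Sox2 at 0.14 relative to it.

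**Figure D2:**
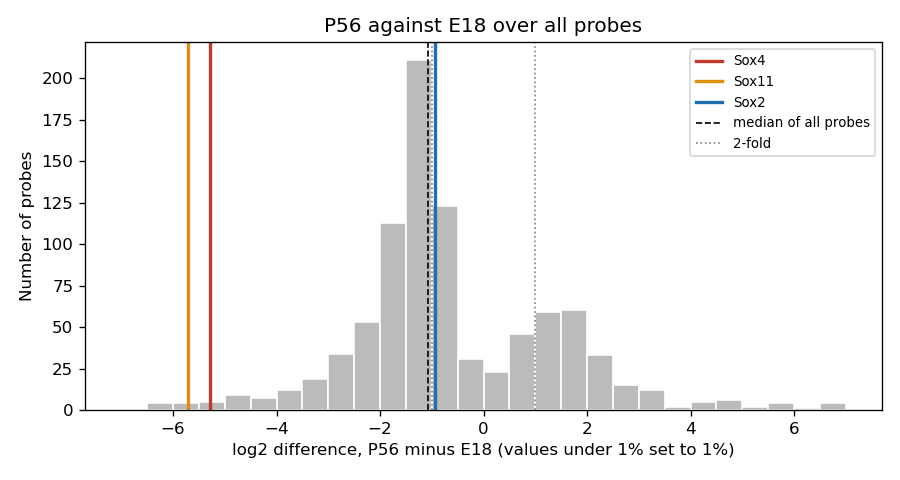
Number of probes by log2 difference of P56 minus E18, in bins of 0.5, for all 897 probes, with values under 1% set to 1%. Solid vertical lines mark Sox11 (-5.71), Sox4 (-5.29) and Sox2 (-0.93), the dashed line the median of all probes (-1.07) and dotted lines 2-fold; the SoxC genes lie in the thin left tail and Sox2 in the main peak.

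Dividing each column by its median, which removes the general decline of the table, left Sox4 lower at P56 by -4.28 and Sox11 by -4.70 (log2), while Sox2 turned to 0.08. On that scale 147 probes were lower and 272 higher, in place of 471 and 203. Quantile normalization gave -4.17 for Sox4, -4.19 for Sox11 and -0.03 for Sox2, with 206 probes lower and 247 higher. The direction for Sox2 thus depends on the scale between columns, and that for the SoxC genes does not under these scalings. The gap between genes is free of a factor shared by a whole column: the log2 difference of Sox4 was 4.36 below that of Sox2 (20.5-fold) and that of Sox11 4.77 below it (27.3-fold). With every value under the 25th percentile (35.8%) set to it, which puts both SoxC genes at that value in the adult, these gaps were -0.55 and -0.41. Sox4 and Sox11 differed from each other by 0.42, close to the median of 0.38 by which 2 probes of 1 gene differed over the 14 genes that have 2.

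At the step to P7 the SoxC genes parted. Sox4 fell 2.51-fold, with 39.9% at P7 against 100% at E18, one of 25 probes (2.79%) that fell at this step, when 5.8% rose, and only 7 probes had a lower difference. With quantile normalization 60 probes fell and 44 rose, in place of 25 and 52. Sox11 had 93.8% at P7 against 90.8% at E18, and Sox2 89.1% against 89.5%. The log2 difference of Sox4 was 1.37 below that of Sox11, or 2.59-fold. Of the whole loss of Sox4 between E18 and P56 in percentage points of the deposited values, 61.7% lay in this step. The share was 0.85% for Sox2, while Sox11 gained 3.04 points.

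At the step to P14, Sox11 fell 3.50-fold, with 26.8% at P14 against 93.8% at P7. Sox4 had 20.2% at P14 against 39.9% at P7, a 1.97-fold difference just short of 2-fold, and Sox2 had 52.8% against 89.1%, or 1.69-fold. In all, 24.7% of probes fell and 14.4% rose at this step, and 77 had a lower difference than Sox11, 228 a lower one than Sox4 and 343 a lower one than Sox2. On the deposited scale this step held 75.2% of the loss of Sox11 in percentage points and 85.2% of that of Sox2. With columns divided by their medians 105 probes fell and 238 rose, in place of 222 and 129. In log2, Sox11 was then at -1.23, Sox4 at -0.40 and Sox2 at -0.18 for this step. Sox2 had no loss between E18 and P56 on that scale (0.08) to divide into shares.

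At the step to P21, both SoxC genes had their largest log2 loss on the deposited scale. For Sox4 this order turned with quantile normalization, which gave -1.42 at P21 against P14 and -1.59 at P7 against E18. With values under the 10th percentile (20.4%) set to it, the largest loss was at P7 for Sox4 (-1.33) and at P14 for Sox11 (-1.81). Sox11 fell 20.3-fold, with 1.32% at P21 against 26.8% at P14, and a single probe of the table had a lower difference. Sox4 fell 5.45-fold, with 3.71% at P21 against 20.2% at P14, and 16 probes had a lower difference. Sox2 had 45.4% at P21 against 52.8% at P14, a difference of -0.22 (log2) against a median of -0.35 over all probes. Here 13.2% of probes fell and 3.23% rose. With columns divided by their medians 51 probes fell and 61 rose, in place of 118 and 29. In log2 terms P21 against P14 was the steepest step for 115 of the 471 probes that fell between E18 and P56 (24.4%), whereas P14 against P7 was the steepest for 321 (68.2%). The size of the fold at P21 rests on small values: either experiment could have been anywhere between 0 and 2.64% for Sox11 and between 0 and 7.42% for Sox4. Because 26.8% at P14 also allows 0 in 1 of the experiments, the fall at this step is not forced in both of them.

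From P21 to P56 none of the 3 genes moved by 2-fold. Sox4 had 2.56% at P56 against 3.71% at P21, Sox11 1.74% against 1.32%, and Sox2 46.9% against 45.4%. At this step 2.23% of probes fell and 2.68% rose. Against P7, when division in the external granular layer is at its height, the adult values were lower 15.6-fold for Sox4, 53.9-fold for Sox11 and 1.90-fold for Sox2, and 52.3% of probes fell and 18.8% rose in that comparison (469 and 169, or 141 and 271 with columns divided by their medians).

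**Figure D3:**
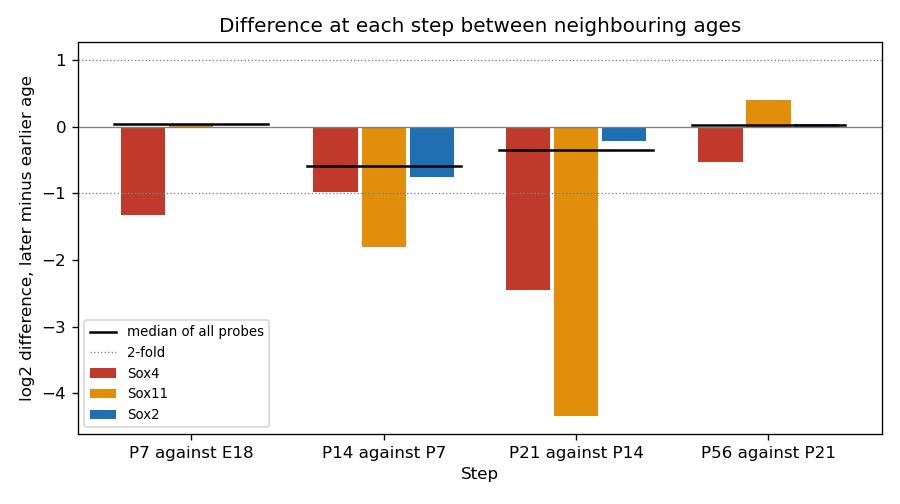
Log2 difference of the later minus the earlier age at each of the 4 steps for Sox4, Sox11 and Sox2 (bars), with the median of all 897 probes (black lines) and the 2-fold limits (dotted lines). Sox4 passes 2-fold at P7 and P21, Sox11 at P14 and P21, and Sox2 at no step.

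The 3 loci lie on different chromosomes. In GRCm38.p6, the assembly of the RefSeq tables used for names and sequences, Sox4 lies on chromosome 13 (28948919 to 28953699), Sox11 on chromosome 12 (27334268 to 27342718) and Sox2 on chromosome 3 (34649995 to 34652461). Where the array's probes lie within them is not stated in the sources used here. The 250 bases before each RefSeq start site are shown because both SoxC genes fell between E18 and P56, by different courses, while Sox2 did not reach 2-fold. They are written 5′ to 3′ on the gene's strand, and capitals mark CCAAT, a common promoter element, or its complement ATTGG. They also mark ACAAAG, a core that HMG box proteins can bind; the complement of this core was searched too.
Sox4, chr13:28953700-28953949, minus strand: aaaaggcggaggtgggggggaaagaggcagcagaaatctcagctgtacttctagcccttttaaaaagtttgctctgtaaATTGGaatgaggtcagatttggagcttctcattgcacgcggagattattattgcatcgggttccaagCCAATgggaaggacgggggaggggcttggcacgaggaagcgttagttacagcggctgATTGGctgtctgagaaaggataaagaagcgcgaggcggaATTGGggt
Sox11, chr12:27342719-27342968, minus strand: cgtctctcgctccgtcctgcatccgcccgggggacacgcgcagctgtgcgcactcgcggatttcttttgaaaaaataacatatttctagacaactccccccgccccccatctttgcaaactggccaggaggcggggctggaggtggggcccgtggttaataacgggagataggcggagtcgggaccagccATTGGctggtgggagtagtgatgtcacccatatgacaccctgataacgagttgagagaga
Sox2, chr3:34649745-34649994, plus strand: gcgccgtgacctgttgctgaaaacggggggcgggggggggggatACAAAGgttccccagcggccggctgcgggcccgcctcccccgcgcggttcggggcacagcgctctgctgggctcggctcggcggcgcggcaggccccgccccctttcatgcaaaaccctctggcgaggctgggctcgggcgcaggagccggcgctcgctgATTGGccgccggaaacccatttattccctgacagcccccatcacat

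CCAAT, searched on both strands, occurred 4 times before Sox4, at 171, 104, 47 and 8 bases from the start site. It occurred 1 time each before Sox11 (60 bases) and Sox2 (46 bases). All of these but the Sox4 match at 104 bases read ATTGG on the strand shown. At least 1 match is present in 33.8% of the 32851 RefSeq windows of the same length, over which positions, strands and numbers of matches were not compared. The motifs were chosen after the 3 sequences were seen, so these shares are given for description and are no test. ACAAAG had 1 match, 206 bases before the start of Sox2, and 0 in the other windows; 16.5% of all windows hold it. The E-box CANNTG, the letters that basic helix-loop-helix factors bind, occurred 1 time before Sox4, 2 times before Sox11 and 0 times before Sox2, against 66.2% of windows with at least 1. GGGCGG occurred 0 times before Sox4 and 2 times each before Sox11 and Sox2 (32.7% of windows). TATAAA and AACAAT had 0 matches in the 3 windows (12.4% and 9.42% of all). Bases G and C made up 50.8% of the window of Sox4, 58.0% of that of Sox11 and 72.0% of that of Sox2, with a median of 52.4% over all windows. A match describes letters and does not show that a factor binds there.

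The genes with the most similar course were found by the mean absolute difference in percentage points over the 5 ages, among the 786 other probes with a single symbol. Closest to Sox4 were Dpysl3, a collapsin response mediator gene of growing axons (3.02 points apart), 1 of the 2 probes of Ebf3, an early B-cell factor gene (4.04), D430019H16Rik (4.74), Cdkn1c, which encodes an inhibitor of cyclin-dependent kinases (4.75), and Sfrp2, a secreted Wnt antagonist gene (4.90). All 5 stood at 100% at E18 and between 33.7% and 57.7% at P7. Closest to Sox11 were Nt5dc2 (3.22), the Myc family gene Mycn (3.29), Cdk1, the kinase that drives mitosis (4.44), Prc1, a gene of the spindle midzone (4.80), and Ezh2, which encodes the histone methyltransferase of the Polycomb complex (5.33). These 5 stood between 87.0% and 95.3% at P7 and between 8.75% and 27.1% at P14. Closest to Sox2 were the translation initiation factor genes Eif4b (2.15) and Eif3b (2.95), the spindle checkpoint gene Bub3 (2.28), Hmgb1, a chromatin protein gene whose product also carries HMG boxes (2.70), and Ssbp1, a gene of mitochondrial DNA maintenance (2.94).

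Sox4 and Sox11 were not each other's nearest genes. They were 14.6 points apart, which placed Sox11 at rank 41 from Sox4 and Sox4 at rank 113 from Sox11. Sox2 was 35.7 points from Sox4 and 24.2 from Sox11. Within 10 points lay 18 named probes for Sox4, 50 for Sox11 and 238 for Sox2. By this measure, in percentage points of the deposited values, the course of Sox4 was the least common of the 3 in this table and that of Sox2 the most common. By the log2 difference of P56 minus E18, Sox11 was the more extreme, with 6 of all probes lower than it and 11 lower than Sox4. The 5 nearest genes depend on the measure: ranked by Pearson correlation of log2 values, 0 of the 5 were shared for each of the 3 genes, and by the mean absolute difference of log2 values 1, 2 and 3 of the 5 were shared for Sox4, Sox11 and Sox2.

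**Figure D4:**
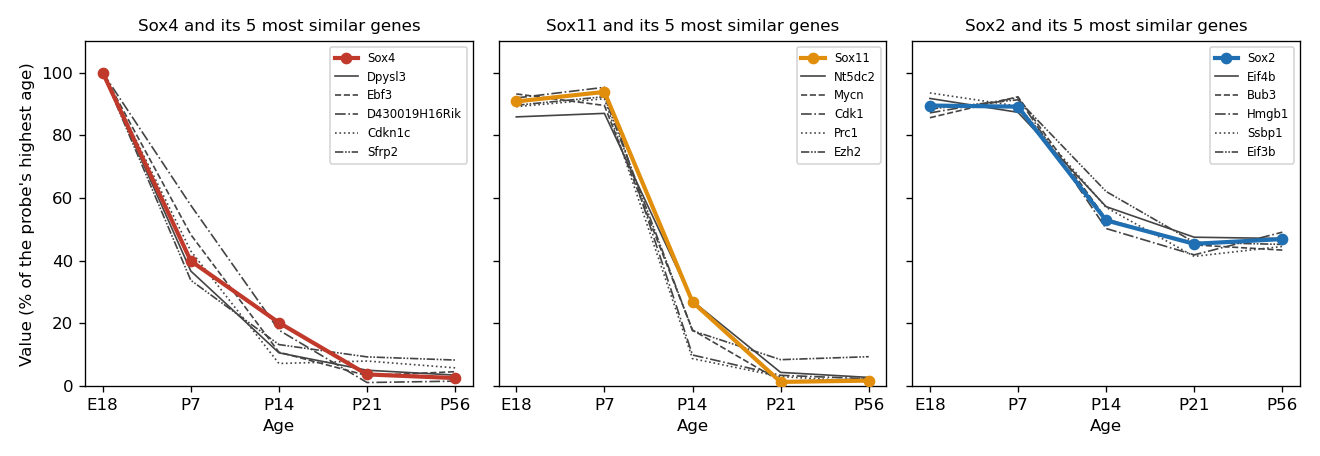
Percent of the probe's highest age at 5 ages for Sox4, Sox11 and Sox2 (coloured) and for the 5 genes with the smallest mean absolute difference to each (dark lines, 1 line style a gene). The Sox4 group has dropped at P7, the Sox11 group is still high at P7 and drops at P14, and the Sox2 group levels off between 41.4% and 49.1% at P21 and P56.

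Genes of the same roles were read beside the members, as counts over lists that leave the members out. Over all 773 named genes 52.8% fell and 22.0% rose between E18 and P56, with a median of -1.07 (log2). Of the 42 genes listed for immature neurons 12 were measured, of which 11 fell and 1 rose, with a median of -2.26. Igfbpl1, under 1% at P56, was lower by at least 61.0-fold, Dpysl3 fell 28.6-fold, and Peg3, an imprinted gene, rose 3.43-fold. Sox4 and Sox11 both fell further than 11 of the 12, with Igfbpl1 as the exception. At the step to P21, 7 of the 12 fell, against 14.2% of named genes. At the step to P7, where Sox4 fell, 1 of the 12 fell, Dpysl3, against 2.72% of named genes.

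The difference of Sox2 lay between the medians of stem cell genes and of genes of mature glia. So did the median over all probes (-1.07), to which Sox2 was close, so this position does not set Sox2 apart. Of 32 genes listed for neural stem cells and radial glia 9 were measured. Of these, 8 fell and 0 rose, against 52.8% and 22.0% of all named genes, and their median was -2.19. Sfrp2 fell 12.1-fold and Tnc, the tenascin C gene, 10.1-fold, and Sox2, at -0.93, lay above 8 of the 9. After median division of the columns, 5 of the 9 were lower and 1 higher, against 147 and 272 of all 897 probes. Of 29 genes listed for astrocytes and Bergmann glia 10 were measured and all 10 rose, against 22.0% of all named genes. The median of these 10 was 2.62, and Sox2 lay below all of them. Dao, the D-amino acid oxidase gene, under 1% at E18, was at least 100-fold higher at P56, while the neurotensin receptor gene Ntsr2 rose 27.6-fold. Of 21 genes listed for oligodendrocytes and myelin 6 were measured, of which 5 rose and 1, the progenitor receptor gene Pdgfra, fell 3.79-fold. Mobp, a myelin protein gene, rose 55.9-fold, and Mag, another, under 1% at E18, was at least 54.7-fold higher. With values under the 25th percentile set to it, 1 of the 6 rose and none fell.

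Of the 20 Sox genes listed, the 3 described here had a probe with a single symbol. Of 29 genes of partner or upstream factors 12 were measured, 10 of which fell and 0 rose between E18 and P56 (median -2.24). In that comparison 52.8% of all named genes fell and 22.0% rose (median -1.07), which is also the background for the lists that follow here. Mycl and Mycn fell 43.7-fold and 40.7-fold, both between Sox4 and Sox11 in size, and Mycn is among the 5 genes nearest to Sox11. The order of these 4 genes rests on small P56 values: 2.13% for Mycl, 2.29% for Mycn, 2.56% for Sox4 and 1.74% for Sox11. After median division of the columns, 6 of the 12 were lower and 1 higher, against 147 and 272 of all 897 probes. Of 21 genes of granule cell progenitors 7 were measured and 6 fell (median -2.08), 4 of the 7 shared with the partner list; Ccnd2, the cyclin D2 gene, under 1% at P56, was at least 49.5-fold lower. All 23 measured genes of the cell cycle fell (median -3.55), with Ncaph, a condensin subunit gene under 1% at P56, at least 69.7-fold lower and Ccna2, the cyclin A2 gene, 64.3-fold lower. Sox11 fell further than 20 of the 23 and Sox4 further than 19, while Sox2 lay above all 23. The ranks of Sox11 and Sox4 here also rest on small P56 values. At the step to P14, 21 of the 23 fell, against 24.5% of named genes.

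**Figure D5:**
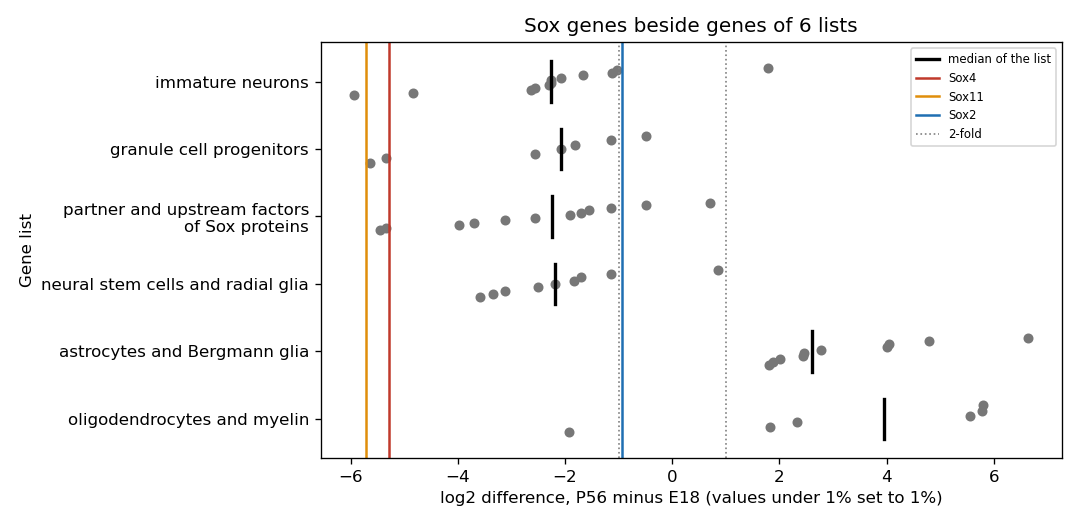
Log2 difference of P56 minus E18 for each measured gene (grey points) of 6 lists, with the list's median (black bars), 2-fold limits (dotted) and lines for Sox11 (-5.71), Sox4 (-5.29) and Sox2 (-0.93). Values under 1% were set to 1%, so some of the outermost points are bounds. Sox4 and Sox11 lie left of all but a few points, and Sox2 lies right of 8 of the 9 stem cell genes and left of all 10 astrocyte genes.

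Markers of other cells in the tissue also moved between E18 and P56, a comparison in which 22.0% of all named genes rose. Mature granule cells had 9 measured genes, of which 8 rose and 0 fell, led by Gabra6 (at least 99.8-fold) and Gabrd (at least 79.5-fold), both GABA-A receptor subunit genes under 1% at E18. All 7 of Purkinje cells rose, led by Pvalb (40.8-fold) and Atp2a3, whose mean over 2 probes, with an E18 value under 1% on 1 of them, was at least 37.3-fold higher. Among 8 genes expressed in meninges or connective tissue, 7 fell and 0 rose, led by Mfap2 (10.7-fold) and Nid1 (7.90-fold), and of 5 genes of endothelial cells and pericytes 3 fell, with Col4a1 (7.66-fold) and Col4a2 (4.05-fold) first, against 52.8% of all named genes. After median division of the columns, 2 of these 5 were lower and 2 higher, against 147 and 272 of all 897 probes. Of 2 microglial genes, Ctss rose 3.36-fold and Laptm5 had 48.9% at P56 against 80.4% at E18. For the choroid plexus 2 genes were measured: Igfbp2 fell 3.62-fold, and Ttr had 62.9% at P56 against 100% at E18. Igfbp2 and Pdgfra did not reach 2-fold after median division. The single erythroid gene, Ank1, which neurons also express, rose 6.27-fold. The part of these changes in the courses of Sox4, Sox11 and Sox2 was not tested, and in whole tissue fewer cells of a type and less RNA per cell cannot be told apart.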

How the data were processed

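Arrays measured total RNA of mouse cerebellum at 5 ages. Per the labels, each deposited column is a mean of signals over 2 array experiments; the sources used here do not give the background correction, the normalization or how probes were chosen. The 4485 deposited values were taken as percent: all lie between 0.01 and 100, 420 probes stand at exactly 100 at 1 age, and all 477 others have a second age at or above 50, as scaling each experiment to its highest age and then averaging requires. No label states this scaling, which was inferred.

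Symbols came from the platform's annotation: 787 probes have 1 symbol, 16 several and 94 none. By gene identifier 784 of the 787 matched the RefSeq table of GRCm38.p6, with 0 symbols changed; promoter windows come from RefSeq on that assembly. The members, gene lists, tests and alternatives were chosen with earlier results of these data known, and the 6 motifs after the sequences were seen.

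Differences are of log2 percent with values under 1% set to 1% (20 values, none of the members), giving bounds. Fold changes are ratios of the deposited percent values. For lists, log2 values of probes of 1 gene were averaged. Named were all member probes, the 5 most similar genes of each, and in each list the 2 most changed genes each way (all genes of lists with under 4 measured). Gabra6, Pcp2, Calb1 and En1 were the measured genes set to check the tissue, and the values of En1 are not given here. Python 3.11.15, numpy 2.4.6 and pandas 2.3.3 were used. Alternatives were 3 floors, a pseudocount, 2 column scalings, thresholds of 3-fold and 1.5-fold, and other first or last ages.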

Additional observations from a re-analysis of the deposited data

How the results depend on the processing

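The differences of Sox4 and Sox11 at P56 against E18 kept direction and side of the limit under all alternatives run; leaving the floor out could not move them, since no value of theirs is under 1%. They ranged from -5.29 to -1.48 (log2) and from -6.10 to -1.34. With columns divided by their medians, Sox2 turned to 0.077 for P56 against E18, 0.053 for P56 against P7, 0.024 for P7 against E18 and 0.17 for P21 against P14. With quantile normalization it turned to 0.0027 for P7 against E18 and 0.13 for P21 against P14. Floors at the 10th percentile (20.4%) and the 25th (35.8%) set low values to the floor by construction. With them P56 against P7 fell short of 2-fold for Sox4 (-0.97 and -0.16), as did P21 against P14 for Sox4 (0.0 with both) and Sox11 (-0.40 and 0.0). The floor at the 25th percentile reduced the gaps to Sox2 to -0.55 for Sox4 and -0.41 for Sox11, and both floors turned the gap of Sox4 minus Sox11 to -0.14. That gap was 1.35 with P21 in place of P56 and 1.79 with P7 in place of E18. A 3-fold limit lost P7 against E18 for Sox4 (-1.33). A 1.5-fold limit added P56 against E18 (-0.93), P56 against P7 (-0.93) and P14 against P7 (-0.75) for Sox2 and P14 against P7 for Sox4 (-0.98).

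Counts over all probes depend more on the scale. For P56 against E18, 471 probes were lower, and 147 after median division of columns, 206 after quantile normalization and 234 at 3-fold; 203 were higher, and 135 at 3-fold. For P56 against P7, 469 were lower, and 141, 192 and 219 under the same settings. For P7 against E18, 25 were lower, and 60 with quantile normalization. For P14 against P7, 222 were lower, and 105 with columns divided by their medians. For P21 against P14, 118 were lower, and 63 and 31 with the floors at the 10th and 25th percentile, 51 after median division and 40 after quantile normalization. For P56 against P21, 20 were lower and 24 higher, and the floors gave 10 and 13 (10th percentile) and 4 and 7 (25th). Probes higher by 2-fold numbered 52, 129, 29 and 24 at the 4 steps in order of age. At P7 against E18 the floors gave 24 and 13. Median division and quantile normalization gave 238 and 224 at P14 against P7 and 61 and 57 at P21 against P14. Leaving out 1 age kept between 2 and 5 of the 5 nearest genes of Sox4, between 2 and 3 for Sox11 and between 2 and 3 for Sox2, and median division kept 4, 4 and 2. No paired analysis was possible because each age has 1 column and no result comes from a test.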
